A study of Mus musculus with 6 samples.

Results

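The 10 genes described here belong to bone morphogenetic protein (BMP) signalling and were measured in 6 mouse lung libraries. They were taken by gene name from a table of 49315 genes, and 10 of 10 were found. They comprised the ligands Bmp2, Bmp4 and Bmp6, the receptors Bmpr2 and Acvrl1, the coreceptor Eng, the target genes Id1 and Id3, and the inhibitory Smads Smad6 and Smad7. The lungs came from C57BL/6 mice given sterile saline (sham, labelled Control) or bleomycin (BLM) by the oropharyngeal route, and were collected 21 days later. BLM injures the lung epithelium and is used to model lung fibrosis. From each treatment, a single-cell suspension was sequenced as it was (unsorted) and after sorting on surface Lamp1, a lysosomal membrane protein, into Lamp1-depleted and Lamp1-enriched cells. There was 1 polyA RNA library for each of the 6 conditions. Lungs of 2 to 3 mice of a group were pooled per tube, so animals cannot be separated. The labels do not say whether the 3 libraries of a treatment came from the same tube.

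BMPs are secreted ligands of the TGF-beta superfamily. They bring type I and type II receptor kinases together at the cell surface, and the activated type I receptor phosphorylates Smad1, Smad5 and Smad9, which enter the nucleus with Smad4 and switch on target genes such as Id1 and Id3. Lung endothelium uses a specialised set of receptors, in which the type II receptor Bmpr2 and the type I receptor Acvrl1 (also called ALK1) respond to circulating BMP ligands with endoglin (Eng) as coreceptor. Loss of human BMPR2 function is a known cause of heritable pulmonary arterial hypertension, and loss of ACVRL1 or ENG function causes hereditary hemorrhagic telangiectasia.

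Counted reads ranged from 30236120 in the BLM Lamp1-depleted library to 52918696 in the BLM Lamp1-enriched library. Gm26917, a noncoding locus, took 38.4% of the counts in the former and at most 7.10% elsewhere, so levels in that library depend most on the scaling. Levels are given as CPM, reads per 1000000 after TMM scaling, a normalisation that sets aside genes with extreme ratios. Ratios between libraries are on the log2 scale, and their 95% intervals cover counting error only. With 1 library per condition they compare libraries, and BLM against sham could be tested over the 3 fractions jointly but not within any of them. The sum of 17 endothelial markers, Pecam1 and Cdh5 among them, was 7748 CPM in sham unsorted, 1675 in sham Lamp1-depleted and 13341 in sham Lamp1-enriched cells. The same sum was 5051, 1242 and 14120 in the BLM libraries in that order. Leukocyte markers ran the opposite way, with 5947 and 2680 CPM in the sham and BLM Lamp1-depleted libraries against 470 and 372 in the Lamp1-enriched ones. No library was endothelium alone: macrophage, fibroblast, mural, epithelial and platelet markers were detected in all 6. In bulk libraries, fewer cells of a type and less RNA per cell cannot be told apart.

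Promoter windows were looked at because Id1, Id3, Smad6 and Smad7 are known direct targets of BMP-activated Smads. Windows of 300 bases around a RefSeq start on GRCm38.p6 were found for 6 of the 10 genes: Bmpr2, Eng, Id3, Smad6, Bmp6 and Bmp4. Distances to the start count from this RefSeq start. For Bmpr2, Id3 and Bmp6 it lies downstream of the gene start in the positions given below, which come from GENCODE M21. Their whole windows lie inside those gene positions. Windows of Bmp2, Acvrl1, Id1 and Smad7 were not used here. The 3 motifs GTCTAGAC, GGCGCC and GGAGCC were searched on both strands. GTCTAGAC is the palindromic Smad-binding element, and the other two are GC-rich Smad motifs, with GGCTCC as the reverse complement of GGAGCC. No matches overlapped. The windows of Smad6 (chr9:64022010-64022309, minus strand) and Id3 (chr4:136143572-136143871, plus strand) are shown 5′ to 3′ because they are the only windows of target genes found, with the matches in capitals.
Smad6: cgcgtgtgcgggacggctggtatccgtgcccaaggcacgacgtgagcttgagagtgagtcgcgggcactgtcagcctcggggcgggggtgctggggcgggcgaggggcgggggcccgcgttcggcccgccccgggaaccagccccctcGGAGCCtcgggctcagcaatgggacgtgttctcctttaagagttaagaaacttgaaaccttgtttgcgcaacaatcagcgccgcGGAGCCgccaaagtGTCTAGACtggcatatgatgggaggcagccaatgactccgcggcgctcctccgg
Id3: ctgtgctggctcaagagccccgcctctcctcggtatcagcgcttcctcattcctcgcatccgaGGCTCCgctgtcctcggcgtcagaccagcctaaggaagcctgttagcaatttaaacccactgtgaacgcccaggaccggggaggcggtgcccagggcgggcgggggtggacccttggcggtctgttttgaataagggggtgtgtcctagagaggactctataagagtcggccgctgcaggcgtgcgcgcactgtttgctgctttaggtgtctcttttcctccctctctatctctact
The Smad6 window held the palindrome once, beginning 4 bases before the start and spanning it, an element found in 70 of 32851 mouse windows (0.213%). It also held GGAGCC at 2 places, beginning 102 and 18 bases before the start. The Id3 window held GGCTCC once, beginning 187 bases before the start, and Bmp4 held it once, beginning 32 bases before. GGAGCC or GGCTCC was present in 30.8% of all windows. Bmpr2 held GGCGCC, a motif of 11.9% of windows, beginning 105 bases before the start. The windows of Eng and Bmp6 held none of these letters. A match describes the sequence and not a bound site.

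The receptors were the most abundant of the 10 genes. Corrected for exon length, as CPM for each kilobase of exon, Eng stood at 380, Bmpr2 at 364 and Acvrl1 at 302 in sham Lamp1-enriched cells. The next level was 110 for Smad6, a cytoplasmic inhibitor of BMP receptors, followed by 87.1 for Bmp6, 77.8 for Smad7, 64.2 for Id1 and 36.6 for Id3. Bmp4 at 8.65 and Bmp2 at 0.68 were the lowest, so Bmp6 was the leading ligand of the 3. In BLM Lamp1-enriched cells, Bmpr2 (247), Eng (243) and Acvrl1 (227) were again the top 3 on this scale, and Bmp4 (6.12) and Bmp2 (1.21) the last. The exception was BLM Lamp1-depleted cells, where Smad7 came first at 57.8, ahead of Acvrl1 at 20.2. With no replicate library, neighbours in this order could not be compared against a spread.

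Bmpr2, the type II receptor (chromosome 1, 59763400 to 59879014, GRCm38), had 193489 reads in unsorted, 36150 in Lamp1-depleted and 300946 in Lamp1-enriched cells of sham mice. In the BLM libraries it had 71841, 5561 and 241836 reads in the same order. After scaling, this was 3986, 793 and 6541 CPM in sham and 1821, 263 and 4437 in BLM cells. Lamp1-enriched cells were highest and Lamp1-depleted cells lowest within each treatment, and each BLM library was below the sham library of its fraction. The type I receptor Acvrl1 (chromosome 15, 101128522 to 101145336) showed the same order, with 761, 151 and 1289 CPM in sham and 358, 86.1 and 967 in BLM cells. Eng (chromosome 2, 32646595 to 32682669) had 821, 175 and 1538 in sham and 361, 76.4 and 985 in BLM cells. Its exons share 61 bases with Fpgs, and those of Acvrl1 share 127 bases with Gm16031, where reads cannot be told apart because the strand setting is not stated.

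Among the ligands, Bmp6 (chromosome 13, 38345107 to 38500302), which is made by endothelial cells and is known from liver as the main inducer of hepcidin, reached 200 CPM in sham unsorted, 36.4 in sham Lamp1-depleted and 340 in sham Lamp1-enriched cells. It had 62.6, 15.5 and 175 in the BLM libraries in that order. Of its exon length, 5.74% overlaps Txndc5. Bmp4 (chromosome 14, 46383520 to 46390669), a ligand needed for early lung development, had 548, 87 and 895 reads in sham and 141, 11 and 750 in BLM cells, or 11.3, 1.91 and 19.5 CPM against 3.57, 0.52 and 13.8. Bmp4 and Bmp6 followed the order of the receptors. Bmp2 (chromosome 2, 133552159 to 133562885) was scarce, with 141, 50 and 112 reads in sham and 92, 21 and 234 in BLM cells. It was the one ligand with its highest level in BLM Lamp1-enriched cells, at 4.29 CPM against 2.43 in their sham counterpart.

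Id1 and Id3 encode helix-loop-helix proteins that block differentiation factors and serve as standard readouts of BMP activity. Id1 (chromosome 2, 152736251 to 152737410) had 52.8, 7.22 and 74.5 CPM in sham and 28.3, 8.47 and 75.9 in BLM cells. Id3 (chromosome 4, 136143497 to 136145755) had 52.9, 9.72 and 65.6 in sham and 25.6, 9.28 and 58.7 in BLM cells. Both therefore differed between treatments mainly in unsorted cells. Smad6 (chromosome 9, 63953076 to 64022059) had 286, 47.1 and 352 CPM in sham and 89.0, 28.3 and 201 in BLM cells. Smad7 (chromosome 18, 75367529 to 75395935), which inhibits both BMP and TGF-beta receptors, had 256, 152 and 352 in sham and 144, 261 and 310 in BLM cells. Smad7 varied 2.44-fold between its highest and lowest library, against 37.4-fold for Bmp4 and 24.8-fold for Bmpr2, and was the member with the smallest range.

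**Figure D1:**
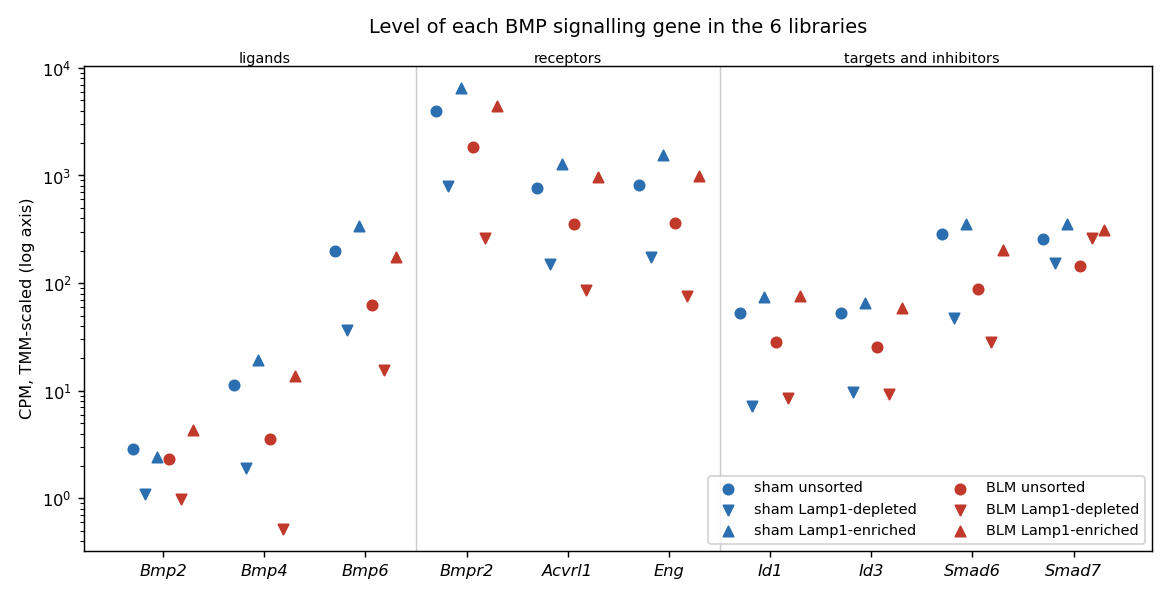
TMM-scaled CPM (log axis) of the 10 genes, with 1 point per library, blue for sham and red for BLM, circles for unsorted, downward triangles for Lamp1-depleted and upward triangles for Lamp1-enriched cells. Within each treatment the Lamp1-enriched point lies above the Lamp1-depleted point for all 10 genes; for Smad7 in BLM cells the values are 310 and 261.

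Most BMP signalling genes were higher in Lamp1-enriched than in Lamp1-depleted cells, as the endothelial markers were, but Bmp2 and Smad7 had lower sorting ratios than all 17 markers in both treatments. In BLM mice, Id3 and Smad6 also lay below 16 of the 17. In sham mice, 10 of the 10 genes were at least 2-fold higher in Lamp1-enriched than in Lamp1-depleted cells, where 27.5% of all tested genes were higher and 25.2% lower by that measure. In BLM mice, 9 of 10 were higher, against 34.3% of all genes higher and 22.6% lower. The edgeR quasi-likelihood test on the 4 sorted libraries, which took treatment as a block, called 9 of the 10 higher and 0 lower at an adjusted p of 0.05. It called 21.5% of all genes higher and 19.2% lower. The members were chosen with earlier results of these data known. Setting their counts beside the shares of all genes, here and below, is therefore a description only. The test has 1 residual degree of freedom and takes its spread from all genes, and it tests neither treatment alone.

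Among the receptors, Bmpr2 rose by 3.46 on the log2 scale in this test (adjusted p = 6.18e-09), Eng by 3.32 (adjusted p = 5.75e-12) and Acvrl1 by 3.20 (adjusted p = 1.36e-11). Bmp6 rose by 3.26 (adjusted p = 9.66e-16), Bmp4 by 3.84 (adjusted p = 3.16e-14) and Bmp2 by 1.52 (adjusted p = 0.0317). The call for Bmp2 was lost with total counts as the scaling (adjusted p = 0.111), without the treatment block (0.0784) and in the DESeq2 Wald test (0.0723). Id1 rose by 3.17 (adjusted p = 5.98e-16), Id3 by 2.61 (adjusted p = 1.28e-11) and Smad6 by 2.77 (adjusted p = 6.17e-12). The size of these p-values depends on the fit. For Id1, the quasi-likelihood adjusted p was 8.9e-05 with all 6 libraries, 0.00014 with total counts and 0.0044 without the treatment block. Smad7 had a log2 fold change of 0.63 and did not pass (adjusted p = 0.181). The 17 endothelial markers were all called higher, for example Cdh5, the adhesion protein of endothelial junctions, at 3.25 and Pecam1 at 2.31. The 12 leukocyte markers were all called lower over both treatments. In sham mice alone 11 of the 12 were lower, and S100a8 was higher in Lamp1-enriched cells, at 0.46 (interval 0.22 to 0.71), against -2.33 in BLM mice. Of the other marker lists, 6 of 6 platelet, 6 of 8 fibroblast, 5 of 6 mural, 6 of 8 epithelial and 1 of 10 macrophage markers were called higher, and 2 macrophage markers lower. Their part in the members' values was not tested.

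The median log2 ratio of the 10 genes was 3.07 in sham mice, next to 3.09 for the endothelial markers and -0.01 for all tested genes. In BLM mice it was 3.33, next to 3.67 and 0.29. For Bmpr2 the log2 ratio was 3.04 (95% interval 3.03 to 3.06) in sham and 4.07 (4.04 to 4.11) in BLM mice, the largest separation by treatment among the receptors. The BLM minus sham difference was 1.03 (interval 0.99 to 1.07) for Bmpr2, 0.55 (0.47 to 0.63) for Eng and 0.39 (0.32 to 0.47) for Acvrl1. The medians of all genes differed by 0.31, and the endothelial marker median went from 3.09 in sham to 3.67 in BLM mice. Among the ligands the difference was 1.35 (0.43 to 2.26) for Bmp4, 0.95 (0.15 to 1.76) for Bmp2 and 0.28 (0.10 to 0.45) for Bmp6. For the targets the difference was -0.21 (-0.48 to 0.07) for Id1 and -0.09 (-0.35 to 0.16) for Id3, and for Smad6 -0.07 (-0.21 to 0.06), all 3 with intervals that include 0. Scaling by total counts adds 0.72 to 0.73 to all these differences, which turns the sign of Id1, Id3 and Smad6, to 0.53, 0.64 and 0.66. Total counts outside Gm26917 and Gm42418 bring Smad6 to 0.00. Smad7 went from 1.21 (1.17 to 1.25) in sham to 0.25 (0.20 to 0.29) in BLM mice, a difference of -0.96 (-1.02 to -0.90), which was -0.23 with total counts. These intervals hold for the libraries and not for mice.

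**Figure D2:**
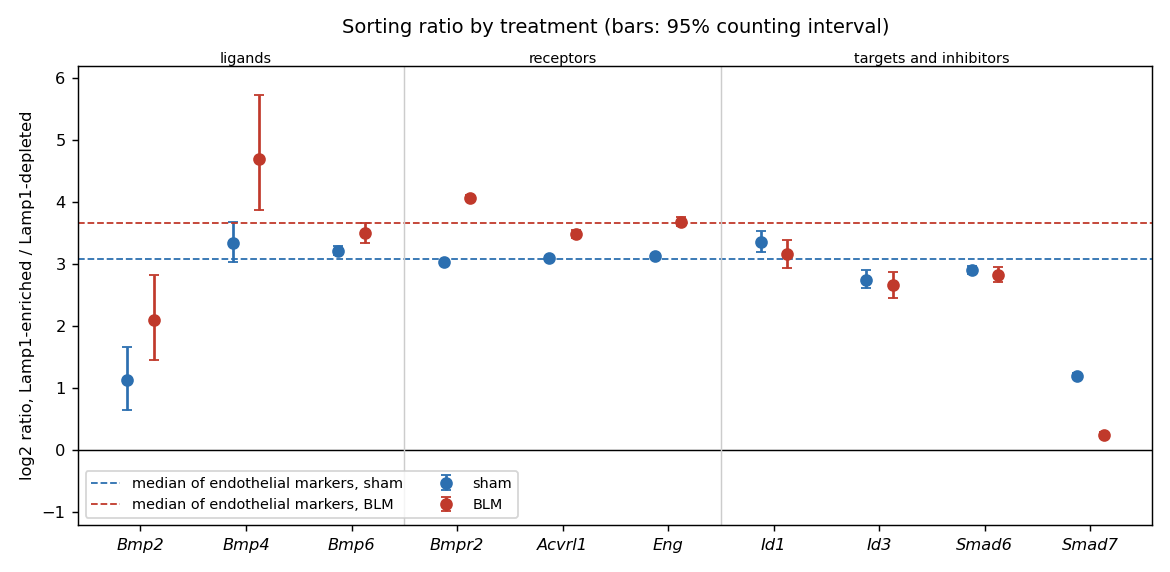
Log2 ratio of Lamp1-enriched over Lamp1-depleted cells for each gene in sham (blue) and BLM (red) mice, with 95% counting intervals, and the median of the 17 endothelial markers in each treatment as dashed lines (3.09 and 3.67). Bmp2 (1.14 and 2.10) and Smad7 (1.21 and 0.25) lie below the dashed lines in both treatments, while Bmpr2 moves from 3.04 to 4.07.

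Compared with unsorted cells, Lamp1-enriched cells of sham mice held modestly more of most members. None of the 10 reached 2-fold, where 2.63% of all genes were higher and 15.9% lower. Ratios on the log2 scale ran from -0.25 for Bmp2 to 0.91 for Eng, with a median of 0.61 beside 0.60 for the endothelial markers. In BLM mice, 9 of 10 were higher by at least 2-fold, against 12.6% of all genes higher and 19.1% lower. Ratios there ran from 0.88 for Bmp2 to 1.94 for Bmp4, with a median of 1.35 beside 1.43 for the endothelial markers. Sham and BLM mice thus differed in how far the unsorted cells stood from the enriched cells, for members and endothelial markers alike. Macrophage markers summed to 3381 CPM in BLM unsorted cells and 601 in sham unsorted cells, and their part in this was not tested.

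In unsorted cells, 10 of 10 members had a lower level in BLM than in sham mice, as did 12196 of 22772 tested genes. Of the 10 members, 7 were at least 2-fold lower, against 16% of all genes lower and 13.9% higher. Smad6 had the lowest log2 ratio at -1.69 (interval -1.74 to -1.63), a 3.22-fold lower level, followed by Bmp6 at -1.68 (-1.74 to -1.61) and Bmp4 at -1.66 (-1.94 to -1.39). The receptors stood together, with Eng at -1.18, Bmpr2 at -1.13 and Acvrl1 at -1.09. The targets Id3 and Id1 were at -1.04 and -0.90 and Smad7 at -0.83, and the interval of Bmp2 (-0.71 to 0.07) included 0. The endothelial markers had a median of -0.64 and a range of -1.41 to 0.44, with 15 of 17 below 0. Eng, Bmpr2 and Acvrl1 lay within that range, each with 3 of the 17 markers below it and 14 above. Smad6, Bmp6 and Bmp4 lay below all 17. All tested genes had a median of -0.07.

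In Lamp1-depleted cells, 4 of 10 members were at least 2-fold lower in BLM mice, against 22.3% of all genes lower and 13.7% higher. The 4 were Bmp4 at -1.84 (-2.93 to -0.96), resting on 11 reads in BLM cells, Bmpr2 at -1.59, Bmp6 at -1.23 and Eng at -1.19. Acvrl1 was at -0.81 and Smad6 at -0.74. Smad7 had the opposite sign at 0.78 (0.73 to 0.83). Scaling by total counts shifts every ratio of this comparison by -0.72, which brings Smad7 to 0.06, and the signs of Bmp2 (-0.14), Id3 (-0.07) and Id1 (0.23) depend on the scaling.

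In Lamp1-enriched cells, the fraction richest in endothelial markers, 0 of 10 members passed 2-fold in either direction, and 7.86% of all genes were lower and 10.2% higher. Of the 10, 8 had counting intervals wholly below 0, where 29.4% of all tested genes had such intervals and 28.7% had them wholly above 0. Bmp6 stood lowest at -0.95 (-0.99 to -0.92), a 1.94-fold lower level, and Smad6 followed at -0.81 (-0.84 to -0.77). Eng was at -0.64 (-0.66 to -0.63), Bmpr2 at -0.56 (-0.57 to -0.55), Bmp4 at -0.50 (-0.64 to -0.36) and Acvrl1 at -0.41 (-0.43 to -0.40). The receptors and the inhibitor Smad6 were thus lower in the BLM library. The endothelial markers had a median of 0.06 there and a range of -0.61 to 1.25, with 11 above and 6 below 0. Bmp6, Smad6 and Eng lay below the whole range of the 17 markers. Id1 was at 0.03 (-0.04 to 0.09), Id3 at -0.16 (-0.23 to -0.09) and Smad7 at -0.18 (-0.21 to -0.15). Bmp2 alone had an interval above 0, at 0.82 (0.49 to 1.16), from 112 reads in sham and 234 in BLM cells. Markers of other cells differed between these libraries as well: from sham to BLM, summed platelet markers went from 959 to 137 CPM, epithelial from 962 to 280, mural from 230 to 138, fibroblast from 254 to 967 and macrophage from 259 to 474. Their part in the members' ratios was not tested.

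Taking the 6 libraries in one edgeR quasi-likelihood fit with fraction as a block, BLM against sham called 1 of the 10 lower and 0 higher, and 1.73% of all genes lower and 2.85% higher. Bmp6 fell by 1.24 on the log2 scale (adjusted p = 0.0203). The call was lost with the 4 sorted libraries alone, where Bmp6 fell by 1.01 (adjusted p = 0.0912). It was also lost without the sham or the BLM unsorted library, at -1.04 in both fits. These are not separate checks. An unsorted library left without its counterpart adds nothing to the treatment contrast, which then rests on the same 4 sorted libraries. Smad6, at -1.03 (adjusted p = 0.0656), Bmp4, at -1.23 (0.0667), Eng, at -0.96 (0.0790), and Bmpr2, at -1.05 (0.111), did not pass. Bmp4 and Smad6 passed with total counts as the scaling (adjusted p = 0.0157 and 0.0434). Acvrl1 was at -0.72, Id3 at -0.38, Id1 at -0.17, Smad7 at -0.03 and Bmp2 at 0.18, with adjusted p-values of 0.181 or more. The sign of Bmp2 turned with total counts, to -0.18, and those of Bmp2, Id1 and Smad7 each turned in some fit without 1 library. The fit has 2 residual degrees of freedom and was chosen after values were seen. Libraries of a treatment may share animals, so its p-values measure agreement across fractions and not between mice.

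**Figure D3:**
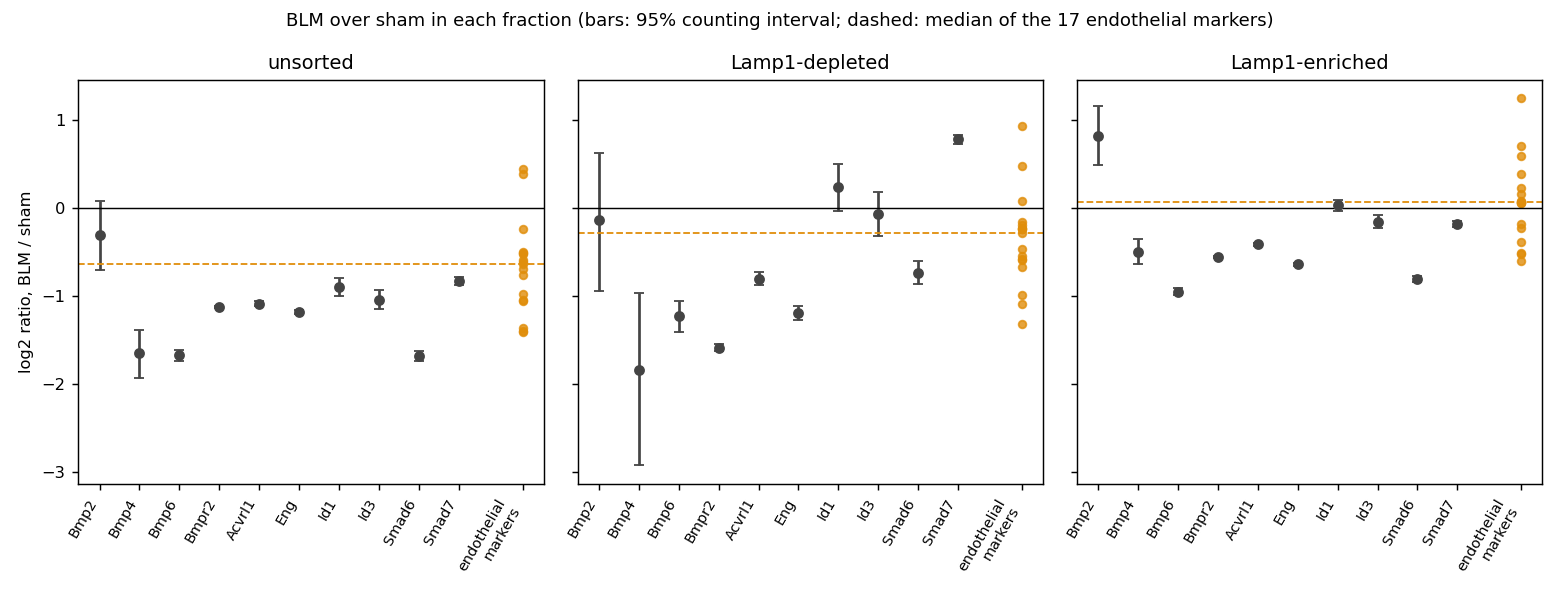
Log2 ratio of BLM over sham for the 10 genes (grey, with 95% counting intervals) and for the 17 endothelial markers (orange points, dashed line at their median) in unsorted, Lamp1-depleted and Lamp1-enriched cells. The marker medians are -0.64, -0.28 and 0.06, and Bmp6 lies below them in each panel, at -1.68, -1.23 and -0.95.

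Because the endothelial share of the libraries differed, reads of each member were also set against the summed reads of the 17 endothelial markers in the same library, a ratio in which library scaling cancels. Bmp6 had 25.9 reads per 1000 endothelial marker reads in unsorted, 21.7 in Lamp1-depleted and 25.5 in Lamp1-enriched cells of sham mice. The BLM libraries had 12.4, 12.5 and 12.4 in that order. Its value was nearly the same in the 3 BLM fractions, although its level there ran from 15.5 to 175 CPM. Acvrl1 had 98.3, 89.8 and 96.6 in sham and 70.8, 69.3 and 68.5 in BLM cells. Eng had 106, 104 and 115 against 71.5, 61.5 and 69.7. The 3 sham values lay above the 3 BLM values for all of these. Bmpr2 had 514, 473 and 490 in sham cells against 361, 212 and 314, and Smad6 had 37.0, 28.1 and 26.4 against 17.6, 22.7 and 14.2. Bmp4 had 1.46, 1.14 and 1.46 against 0.71, 0.42 and 0.97, likewise without overlap, though the value of 0.42 rests on 11 reads.

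Id1 did not show this separation, at 6.82, 4.31 and 5.58 in sham and 5.60, 6.82 and 5.37 in BLM cells, nor did Id3, at 6.82, 5.80 and 4.92 against 5.07, 7.47 and 4.16. Smad7 had 33.0, 90.9 and 26.4 in sham and 28.5, 210 and 21.9 in BLM cells, so its reads in Lamp1-depleted cells were out of proportion to the endothelial markers. Bmp2, at 0.37, 0.65 and 0.18 against 0.46, 0.80 and 0.30, had a higher value in BLM than in sham cells of each fraction, with overlapping values across fractions. It rested on few reads. Taken relative to the endothelial marker median, its BLM over sham log2 ratio had counting intervals of -0.07 to 0.71 in unsorted and -0.67 to 0.90 in Lamp1-depleted cells. Both include 0, and only the interval in Lamp1-enriched cells (0.42 to 1.09) did not. In all, 6 of 10 members were lower in each of the 3 BLM libraries than in each of the 3 sham libraries, and 0 were higher. Among 24474 genes that had 10 or more reads in some library, 2.72% were lower in this way and 1.86% higher. Among the 2249 genes with a sorting ratio of at least 2 on the log2 scale in both treatments, which include 8 of the members, 17.2% were lower and 10.2% higher. Of the 17 endothelial markers, 4 were lower (Tek, Kdr, Cldn5 and Ramp2) and 1 was higher (Nos3). Vwf had the most reads of the markers in BLM Lamp1-enriched cells, at 167708 against 94421 in sham, and without it 5 members kept the separation and Bmp4 did not. The 3 libraries of a treatment are different fractions and not replicates, and this comparison was chosen after values were seen.

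**Figure D4:**
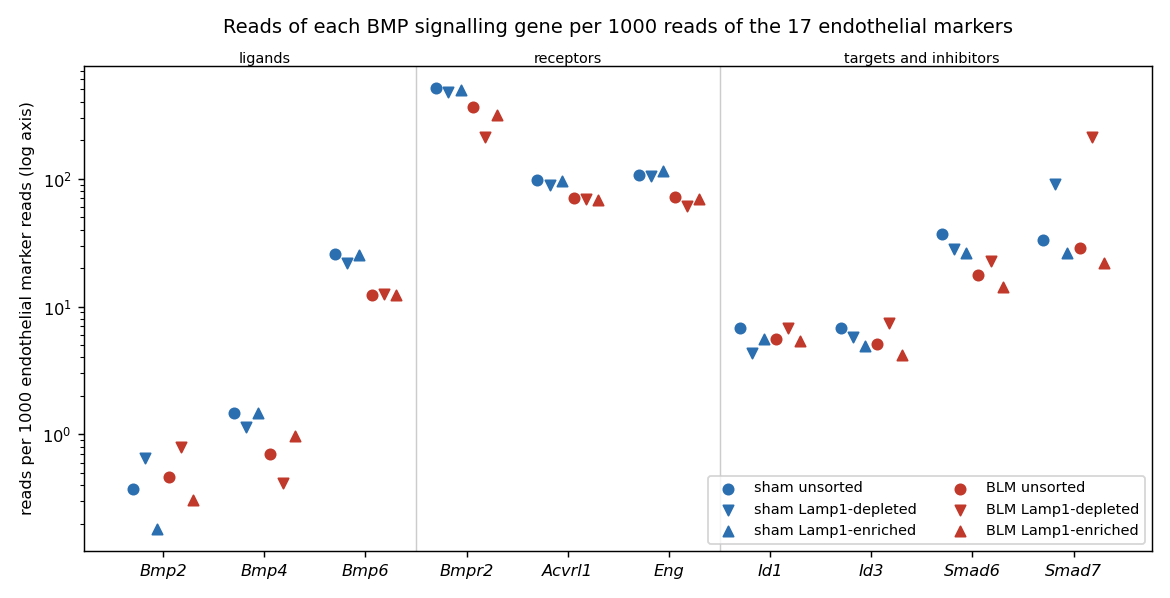
Reads of each gene per 1000 reads of the 17 endothelial markers in the same library (log axis), coloured and shaped as in the plot of levels. For Bmp4, Bmp6, Bmpr2, Acvrl1, Eng and Smad6 the 3 sham points lie above the 3 BLM points, for Bmp6 at 21.7 to 25.9 against 12.4 to 12.5; the points of Id1 and Id3 overlap.

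Each member had genes outside the pathway and marker lists nearer to it in profile over the 6 libraries than any other member. Such genes far outnumber the members, so this cannot show whether the members are alike or unlike. Likeness of profile was measured as the root mean square difference of centred log2 levels, over 19089 genes, as a description of 6 libraries of which some may share animals. The closest pair of members was Eng and Acvrl1, at 0.142, and Id1 and Id3 were nearest to each other at 0.254. Bmp6 was nearest to Hecw2 (0.068) and Adgra3 (0.10), Acvrl1 to Lifr (0.071) and Npr1 (0.082), and Eng to Dll4 (0.10), a Notch ligand of endothelial cells, and Zfp449 (0.109). Bmpr2 was nearest to Tnfsf10 (0.116) and Arhgap29 (0.119), and Bmp4 to Tspan7 (0.121) and Myct1 (0.161). Id1 was nearest to Afap1l1 (0.064) and Fam124a (0.079), and Id3 to Arap3 (0.060) and Ptk2 (0.063). Smad6 was nearest to Gm24056 (0.069), which had 100 reads in total, and Stxbp6 (0.085). Bmp2 (Gm2399, 0.091, and Gm42161, 0.107) and Smad7 (Gm17233, 0.135, and Khk, 0.144) were nearest to genes with few reads. The member nearest to Smad7 was Bmp2, at 0.704, and the member nearest to Bmp2 was Id3, at 0.569, against 0.142 to 0.261 for the other 8.

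The wider pathway was partly arranged like the members. Of 12 other ligands, 5 could be tested for sorting, and Bmp3 (log2 fold change 1.88) and Bmp5 (2.06) rose, while Bmp7 fell by 3.25 (adjusted p = 0.00044). Bmp7 had 96 reads in sham and 36 in BLM Lamp1-depleted cells against 11 and 10 in Lamp1-enriched cells, so its level was highest in the leukocyte-rich fraction. Of 9 other receptors and coreceptors tested, 7 rose, among them the type I receptor Acvr1 (2.44), the type II receptor Acvr2b (2.42) and the coreceptor Rgma (2.53). Bambi, a decoy receptor without a kinase, fell by 1.01 (adjusted p = 0.0198). Bambi was also lower in BLM than in sham cells of each fraction, at -1.29 in unsorted, -1.21 in Lamp1-depleted and -1.33 in Lamp1-enriched cells. Of the 4 other Smads, Smad1 (1.36), Smad5 (1.57) and Smad9 (3.23) rose, and Smad4 did not pass.

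Among these signal transducers, Smad9 differed between treatments and its relatives did so less. Smad9 had 620, 122 and 909 reads in the sham libraries, ordered as above, and 140, 10 and 397 in the BLM libraries. Its log2 ratios of BLM over sham were -1.84, -2.46 and -1.44. In Lamp1-enriched cells Smad1 was at 0.71 (0.63 to 0.78) and Smad5 at 0.18 (0.15 to 0.22). Of 12 secreted antagonists tested, 7 rose with sorting and 0 fell, with Fst, which binds activins and BMPs, at 3.38 and Fstl1 at 3.01.

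Grem1, a secreted antagonist of Bmp2 and Bmp4, had the largest treatment ratio of the named pathway genes. It had 1 read in each of the 3 sham libraries, and 352 in BLM unsorted, 10 in BLM Lamp1-depleted and 330 in BLM Lamp1-enriched cells. The ratio of BLM over sham was 191 in Lamp1-enriched cells, with a counting interval of 49.7 to 11036, which is wide because it rests on 1 sham read. Fibroblast markers summed to 254 CPM in sham and 967 in BLM Lamp1-enriched cells, and their part in the Grem1 reads was not tested. Nog, the antagonist noggin, had 82 reads in sham and 5 in BLM Lamp1-enriched cells. Chrdl1 was at -1.41 (-1.79 to -1.05) in the same cells. The antagonists did not share a direction: of 13 with enough reads in Lamp1-enriched cells, 7 had BLM over sham ratios above 0 and 6 below. By 2-fold, 2 were higher and 2 lower with BLM, against 10.2% of all genes higher and 7.86% lower.

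Of 7 intracellular modulators, 4 rose with sorting, including Fkbp1a (2.45), which holds type I receptors inactive, the ubiquitin ligase Smurf2 (2.12) and the corepressor Ski (1.32). Smurf2 was lower in BLM cells of each fraction, at -1.41, -1.22 and -1.04, and Tob1, which did not pass the sorting test, had BLM over sham ratios of 0.83 in unsorted, -1.28 in Lamp1-depleted and 0.05 in Lamp1-enriched cells. Of 8 other targets tested, 6 rose and 1 fell. Tmem100, an endothelial gene induced through Acvrl1, rose by 3.60 and Hey1 by 3.28, and Msx1 rose by 3.25. Tmem100 was lower in BLM cells, at -1.79, -1.31 and -0.71 in the 3 fractions, whereas Hey1 was at -0.26 and Msx1 at 0.69 in Lamp1-enriched cells. Id2, a relative of Id1 and Id3, did not pass the sorting test and had ratios of 1.34, -0.45 and 0.18 in the same order. Median ratios of BLM over sham in Lamp1-enriched cells were -0.34 for the other receptors, -0.04 for the other Smads, 0.01 for the antagonists, -0.15 for the intracellular modulators and -0.05 for the other targets, beside -0.46 for the 10 members and 0.00 for all tested genes.

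**Figure D5:**
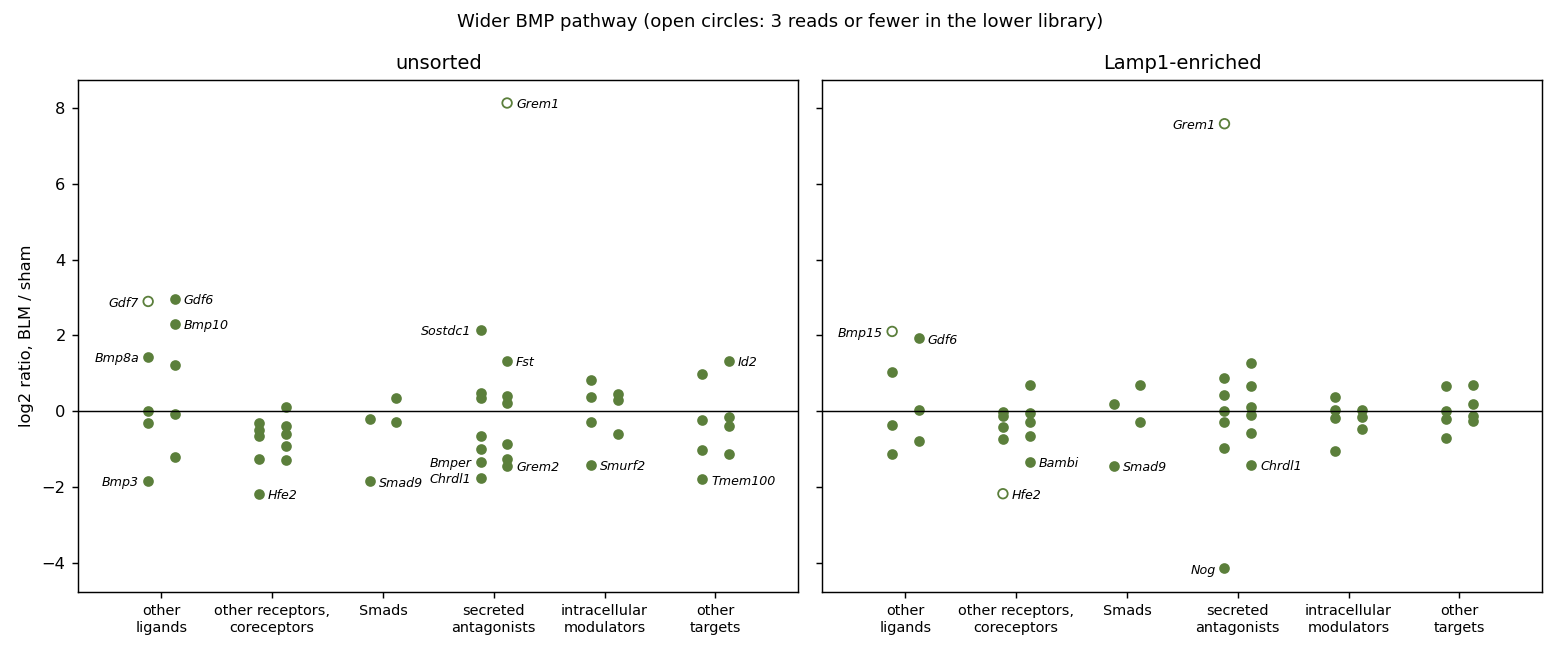
Log2 ratio of BLM over sham for the other pathway genes whose higher library had 10 reads or more, in unsorted and Lamp1-enriched cells, by role, with open circles where the lower library had 3 reads or fewer and names at ratios beyond 1.3. Grem1 stands at 8.13 and 7.58 on 1 sham read each, Nog at -4.14 in Lamp1-enriched cells and Smad9 at -1.84 and -1.44.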

How the data were processed

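RNA was measured in 6 lung libraries, 1 per condition, and samples were grouped by their labels. The deposited table holds raw counts of reads for each gene, with no normalisation by the authors. The submitters' processing notes name Trimmomatic 0.36, STAR 2.5.2b, featureCounts, Subread 1.5.2, DESeq2 and GRCm38. The annotation release, the strand setting and the treatment of multi-mapped reads are not given in the sources used here. The time of collection and the pooling of lungs come from the published methods.

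The members and the gene lists were chosen with earlier results of these data known. Positions and exon lengths came from GENCODE M21, which held 48970 of the 49315 genes. TMM factors over the 6 libraries (edgeR 4.0.16, R 4.3.3) ranged from 0.699 to 1.19. Log2 ratios (Python 3.11.15) used a prior count of 0.5 reads and at least 10 reads in the library with more, and a log2 ratio of 1 (2-fold) counted as higher or lower. Intervals are 95% Clopper-Pearson intervals of the share of reads. The depth of 30236120 to 52918696 counts makes them narrow for abundant genes, but they hold no variation between mice. Lamp1-enriched and Lamp1-depleted cells were compared with the edgeR quasi-likelihood test on the 4 sorted libraries, with a treatment block, filterByExpr and Benjamini-Hochberg adjustment over 20593 genes, at a biological coefficient of variation of 0.316. BLM and sham were compared in the same way over all 6 libraries with fraction as a block (21906 genes). The code was tested on simulated data.

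Besides the members, the wider pathway genes named were those with at least 50 reads that had, within their list, one of the 3 largest sorting ratios or the 2 largest treatment ratios in unsorted cells. The 2 genes of nearest profile were named for each member, among genes outside the pathway and marker lists with at least 100 reads in all. The lists held 12 ligands, 10 receptors, 4 Smads, 17 antagonists, 7 intracellular modulators and 10 targets. Gm26917, Smad4 and the markers named beside a count were chosen after their values were seen. Lamp1 had a log2 ratio of Lamp1-enriched over Lamp1-depleted cells of 1.75 in sham and 1.77 in BLM mice. Alternatives were total counts, total counts outside Gm26917 and Gm42418, DESeq2 1.42.0 size factors and its Wald test, a prior count of 2, a minimum of 1 or 50 reads, a log2 ratio of 2, all 6 libraries, no block, and other endothelial references. The version without Vwf, the test of treatment, the scalings of the differences between sorting ratios and the fits without 1 library were chosen after seeing the data.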

Additional observations from a re-analysis of the deposited data

Results flagged for a closer look

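Smad7 was the one member whose BLM over sham ratio had opposite signs with counting intervals clear of 0. Its log2 ratio was -0.83 in unsorted cells, 0.78 in Lamp1-depleted cells and -0.18 in Lamp1-enriched cells. The difference between fractions was not tested, since each rests on 1 library per treatment. The ratio in Lamp1-depleted cells was 0.06 when libraries were scaled by total counts and 0.93 with DESeq2 size factors. In that library 38.4% of reads fell on Gm26917, and the part of this in the Smad7 ratio was not tested.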

How the results depend on the processing

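Counts of members kept their size within 1.5 times under other scalings, a prior count of 2 and other read minimums. At a log2 ratio of 2, 0 members were higher in Lamp1-enriched than in unsorted BLM cells (9 at a ratio of 1), and 0 were lower with BLM in unsorted (7) or Lamp1-depleted cells (4). The quasi-likelihood test called 8386 genes in all, 4436 with total counts only and 5077 without the treatment block, and 8 of the members instead of 9 in both, as Bmp2 lost its call. DESeq2's Wald test also called 8. Scaling by total counts shifted all ratios by 0.56 for Lamp1-enriched over Lamp1-depleted BLM cells and by -0.72 and -0.26 for BLM over sham in Lamp1-depleted and unsorted cells. Signs of ratios changed with scaling for Bmp2, Id1 and Id3 in BLM over sham of Lamp1-depleted cells, and signs of the BLM minus sham difference in sorting ratio for Id1, Id3 and Smad6. The 6-library test of BLM against sham called 1 member and 1005 genes. It called 3 members with total counts, 0 with the 4 sorted libraries, and 5 members and 2038 genes with all genes of at least 1 read. Leaving out 1 library at a time, it called 0 to 2 members and 779 to 1304 genes, with 0 members without either unsorted library. Bmp4 gained a call without either Lamp1-enriched library and Smad6 without either Lamp1-depleted one. In this test of treatment, a library left without its counterpart adds nothing to the contrast. Leaving out either library of a fraction thus repeats the same check. The 6-library test of sorting called 9 members and 8391 genes, and 8 to 9 members and 4828 to 8351 genes when 1 library was left out. It called 4828 without the BLM Lamp1-enriched library, where Bmp2 lost its call (adjusted p = 0.365). Without the BLM Lamp1-depleted library Bmp2 lost its call (adjusted p = 0.0841) and Smad7 gained one (0.0183). Of the other values of single members, 355 stayed within their counting interval or on their side of the threshold, 172 moved beyond it with the same sign where called, and 3 lost a call. Libraries could not be paired by animal or tube because the labels give no replicate numbers. The tests take treatment or fraction as a block, and with 3 of the 4 sorted libraries no residual degree of freedom remains. The depth limits Bmp4 and Bmp2 most, which had 11 and 21 reads in BLM Lamp1-depleted cells.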
